A study of Mus musculus with 24 samples.

Results

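*Foxp3* and 6 other genes whose transcripts mark regulatory T (Treg) cells, *Ikzf2*, *Ikzf4*, *Lrrc32*, *Nrp1*, *Izumo1r* and *Gpr83*, were followed across 24 bulk RNA-seq libraries. The 7 genes were chosen by symbol from the 17464 genes listed, all 7 were found, and all 7 passed the filter on low values. The libraries came from the spleens of 4 young (2 months old) and 4 old (26 months old) WT C57BL/6JRccHsd mice. From these mice 3 Treg subsets were sorted: resting cells (rTreg, CD44-), activated cells (aTreg, CD44+) and KLRG1+ cells (kTreg), which gave 6 groups of 4 libraries. No group received a treatment or carried a transgene that the labels name, and the labels name no *Foxp3* reporter. Libraries of 1 age with the same number were taken as 1 mouse, which the numbers of the labels and the stated 4 mice of each age allow but do not state, and counts of mice rest on this. Each library pools sorted cells, and the number of cells behind it is not given in the sources used here. The comparisons ask how the KLRG1+ subset stands against the resting and the activated cells, and how each subset stands in old against young mice.

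Treg cells restrain other immune cells, and mice without FOXP3, the forkhead transcription factor that defines them, die of autoimmunity. The Ikaros family proteins Helios (*Ikzf2*) and Eos (*Ikzf4*) act beside FOXP3, Helios keeping the Treg programme stable under inflammation and Eos serving as a partner in gene silencing. At the cell surface, LRRC32 (GARP) holds latent TGF-beta for activation, NRP1 binds semaphorins and VEGF, IZUMO1R belongs to the folate receptor family, and GPR83 is a G protein-coupled receptor enriched in Treg cells.

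On GRCm39, *Foxp3* lies at chrX:7439883-7461484 on the plus strand, *Ikzf2* at chr1:69570373-69727004 on the minus strand, and *Ikzf4* at chr10:128466712-128505227 on the minus strand. *Lrrc32* lies at chr7:98138490-98151388 and *Nrp1* at chr8:129085085-129231082, both on the plus strand. These are whole genes, introns included, while the reads were counted on exons. *Gpr83* (chr9:14771180-14782085, plus strand) and *Izumo1r* (chr9:14797110-14815245, minus strand) are neighbours whose ends face each other across 15024 bases, and in young mice both were lower in kTreg cells than in both other subsets. Their start regions are shown for this reason, with the start regions of *Foxp3*, the gene that defines the cells. The windows run from 250 bases before to 50 bases after a start site and are RefSeq sequences on GRCm38.p6, where 4 of the 7 genes matched. They are *Gpr83* at chr9:14859960-14860259 on the plus strand, *Izumo1r* at chr9:14903718-14904017 on the minus strand, and 2 starts of *Foxp3*, at chrX:7579426-7579725 and chrX:7580233-7580532 on the plus strand. Capitals mark the matches to the motifs searched on both strands.
Gpr83: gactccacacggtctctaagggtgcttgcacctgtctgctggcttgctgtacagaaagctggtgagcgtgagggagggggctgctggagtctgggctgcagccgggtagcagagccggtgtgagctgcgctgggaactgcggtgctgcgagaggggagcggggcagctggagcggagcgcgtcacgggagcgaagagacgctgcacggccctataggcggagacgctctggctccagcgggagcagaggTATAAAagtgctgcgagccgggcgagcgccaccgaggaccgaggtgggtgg
Izumo1r: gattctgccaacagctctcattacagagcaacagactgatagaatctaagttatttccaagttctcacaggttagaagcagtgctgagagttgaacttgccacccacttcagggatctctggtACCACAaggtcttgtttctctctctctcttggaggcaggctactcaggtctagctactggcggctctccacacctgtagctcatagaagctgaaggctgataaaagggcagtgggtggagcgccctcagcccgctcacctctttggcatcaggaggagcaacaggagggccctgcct
Foxp3, upstream start: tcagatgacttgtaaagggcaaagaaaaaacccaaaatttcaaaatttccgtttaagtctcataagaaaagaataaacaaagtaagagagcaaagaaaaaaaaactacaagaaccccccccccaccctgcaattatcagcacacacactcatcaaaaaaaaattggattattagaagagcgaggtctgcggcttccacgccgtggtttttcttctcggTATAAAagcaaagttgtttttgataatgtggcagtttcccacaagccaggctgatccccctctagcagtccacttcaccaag
Foxp3, downstream start: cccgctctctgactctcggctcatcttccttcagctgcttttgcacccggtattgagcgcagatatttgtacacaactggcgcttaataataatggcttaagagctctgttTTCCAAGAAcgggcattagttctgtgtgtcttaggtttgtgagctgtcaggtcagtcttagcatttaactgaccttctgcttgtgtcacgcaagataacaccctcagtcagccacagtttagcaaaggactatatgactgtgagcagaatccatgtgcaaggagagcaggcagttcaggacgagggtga
The letters searched were TGTTTAC for forkhead factors, TGTGGT for RUNX factors and TTCNNNGAA for STAT factors. For ETS factors they were CCGGAAGT, for CREB they were TGACGTCA, for AP-1 they were TGANTCA, and for the TATA box they were TATAAA. The forkhead letters were in none of the windows of the 4 genes and in 3.65% of 32851 promoter windows. The TATA letters, at base 250 of the *Gpr83* window and base 219 of the upstream *Foxp3* window, were in 13.6% of all windows. The RUNX match of *Izumo1r*, read on the opposite strand, starts at base 124 and such a match was in 16.8% of windows. The STAT match in the downstream *Foxp3* window starts at base 112 and was in 8.30% of windows. The AP-1, ETS and CREB letters, in 7.81%, 3.89% and 1.79% of all windows, were in none of the 4 genes' windows. *Nrp1*, the other gene matched, had no match to any of these letters.

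Each library had 15045747 to 29521942 reads on the genes listed, and 1 read was worth 0.694 to 1.32 normalized units. *Klrg1* lay between 16559 and 41561 normalized read counts in the kTreg libraries and at or below 357 elsewhere, and the Treg genes *Il2ra* and *Ctla4* and the T cell genes *Cd4*, *Cd3e* and *Cd3g* were present in all 24. Some libraries stood apart. The old aTreg library of replicate 2 was low in all 7 genes. The 3 libraries of young mouse 2 held the most B cell transcripts. The young kTreg library of replicate 4 had 4913 genes listed at 0. In old rTreg libraries, summed basophil and mast cell markers lay between 3325 and 8230 against 148 to 245 in young rTreg libraries. Summed macrophage and monocyte markers lay between 11555 and 29066 in old rTreg, 9001 and 35115 in young kTreg and 6204 and 8867 in old kTreg libraries, and between 1653 and 7479 in aTreg libraries of either age. Of these 10 markers 2 were higher in kTreg than in aTreg cells, and their part in the results was not tested. In old aTreg libraries 1 marker, *Ccr2*, made up most of the sum. It stood at 7233 of 7479 in replicate 2 and at 2651 to 5480 in the others, where *Lyz2* was at most 224. Results that rest on the old aTreg library of replicate 2 are given with and without it.

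*Foxp3* was high in all 6 groups and highest in kTreg cells of old mice. In young mice, replicates 1 to 4 stood at 21854, 20577, 24096 and 29388 normalized read counts (reads divided by the size factor of the library) in rTreg cells, at 20351, 24068, 24857 and 25465 in aTreg cells, and at 30375, 31601, 36395 and 24669 in kTreg cells. In old mice they stood at 26513, 20458, 13151 and 26265 in rTreg cells, at 16925, 5079, 18346 and 19813 in aTreg cells, and at 32111, 34841, 34365 and 37793 in kTreg cells. All 4 old kTreg libraries were above each rTreg and aTreg library of either age, whereas the young kTreg libraries overlapped both other young subsets through replicate 4. All 4 old aTreg libraries were below the young aTreg libraries. The log2 fold change of kTreg against aTreg cells was 1.38 ± 0.29 (standard error, adjusted p = 0.014, limma) in old mice and 0.37 ± 0.29 (adjusted p = 0.48) in young mice, with 4 of 4 and 3 of 4 mice higher in kTreg cells. The difference between the ages, 1.02 ± 0.42, did not pass its own test (adjusted p = 0.45). Without the old aTreg library of replicate 2, the old value was 0.92 (adjusted p = 0.016). The old call was lost without all libraries of old mouse 2 (0.92, adjusted p = 0.069, limma) and without the old kTreg library of replicate 3 (1.39, adjusted p = 0.051). Over both ages the value against aTreg cells was 0.88 ± 0.21 (adjusted p = 0.0073, limma). This pooled call held in 42 of 42 alternatives, with values of 0.64 to 0.97. Against rTreg cells the pooled value was 0.55 ± 0.21 (adjusted p = 0.062). It passed with edgeR (0.64, adjusted p = 0.032), DESeq2 (0.63, adjusted p = 0.013) and limma (0.66, adjusted p = 0.042) on 22 libraries, without the old rTreg library of replicate 1 (0.61, adjusted p = 0.047) and without the young kTreg library of replicate 4 (0.60, adjusted p = 0.038). In aTreg cells, old against young aTreg cells gave -0.83 ± 0.29 (adjusted p = 0.17). No neighbouring pair in the order old kTreg, young kTreg, young rTreg, young aTreg, old rTreg and old aTreg differed past the threshold. In bulk libraries, fewer cells with a transcript and less of it per cell cannot be told apart.

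**Figure D1:**
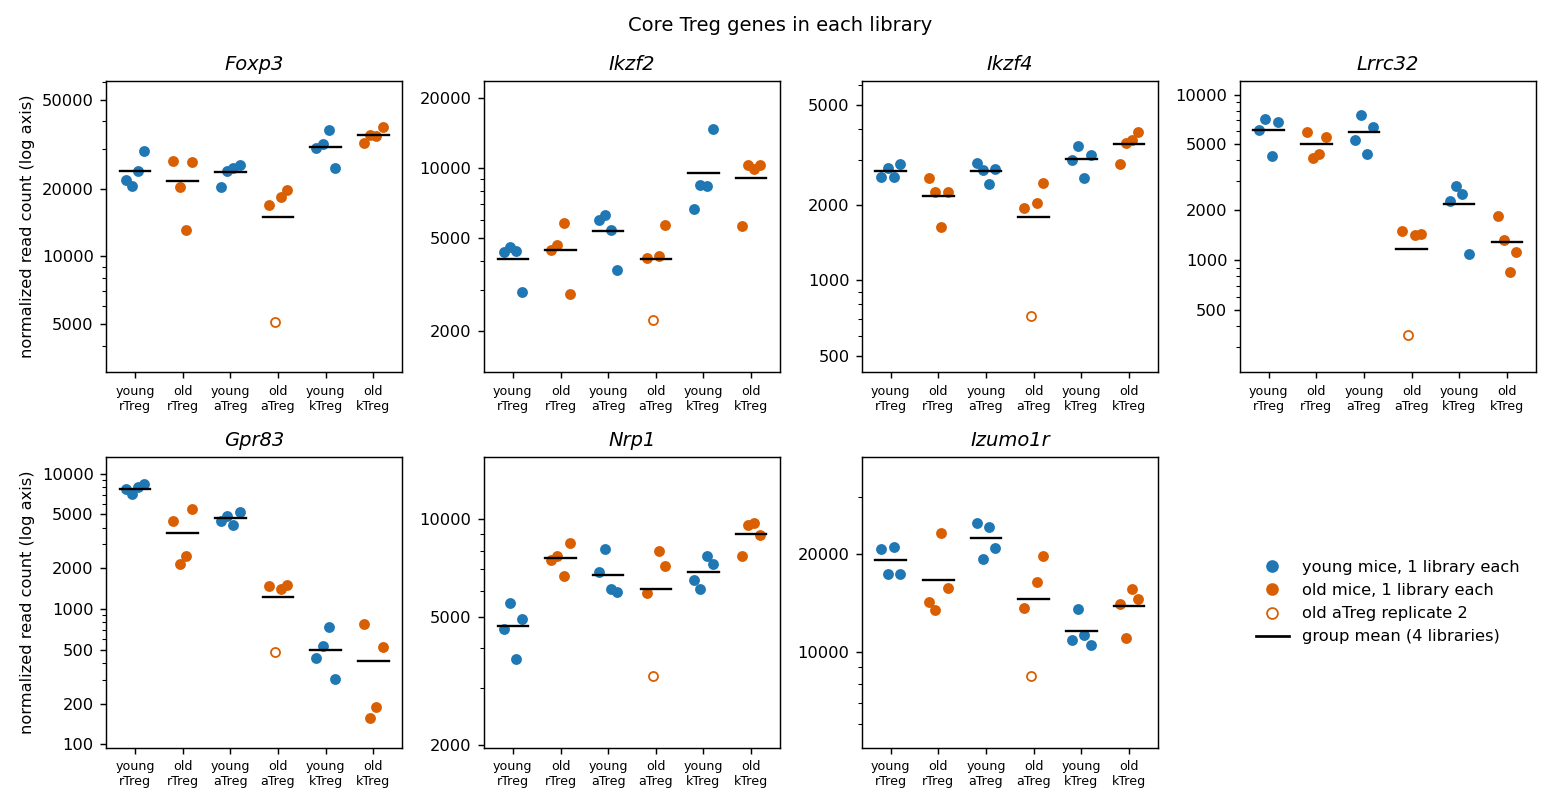
Normalized read count on a log axis of the 7 genes in each of the 24 libraries, by age and subset. Points are libraries of 1 mouse each, bars are means of 4, and the open point is the old aTreg library of replicate 2, which is the lowest of its group in all 7 panels (for *Foxp3* 5079 against 16925 to 19813).

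*Ikzf2* (Helios) was highest in kTreg cells at both ages. In young mice it stood at 4372, 4613, 4426 and 2951 in rTreg cells, at 6026, 6326, 5407 and 3678 in aTreg cells, and at 6715, 8440, 8374 and 14786 in kTreg cells. In old mice it stood at 4440, 4665, 5812 and 2892 in rTreg cells, at 4132, 2227, 4213 and 5687 in aTreg cells, and at 5675, 10316, 9958 and 10370 in kTreg cells. Each young kTreg library was above each rTreg and aTreg library of either age. In old mice the kTreg library of replicate 1 lay among the other subsets and the other 3 lay far above them. Young mouse 4 had the lowest value among young rTreg and among young aTreg libraries and the highest among young kTreg libraries. kTreg cells exceeded aTreg and rTreg cells in 8 of 8 mice. The log2 fold change against rTreg cells was 1.18 ± 0.28 (adjusted p = 0.0049, limma) in young and 1.03 ± 0.28 (adjusted p = 0.023) in old mice. Against aTreg cells it was 1.00 ± 0.20 over both ages (adjusted p = 0.0020), 0.80 ± 0.28 in young mice (adjusted p = 0.088) and 1.19 ± 0.28 in old mice (adjusted p = 0.027). With each mouse as a fixed term of the model (a replicate block) the old value was 1.19 with an adjusted p of 0.051. Without the old aTreg library of replicate 2 the old value was 0.93 and no longer passed (adjusted p = 0.16), while the value over both ages was 0.87 (adjusted p = 0.0044).

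*Ikzf4* (Eos) was highest in old kTreg cells, as *Foxp3* was. In young mice it stood at 2580, 2806, 2567 and 2915 in rTreg cells, at 2939, 2735, 2420 and 2779 in aTreg cells, and at 3014, 3437, 2551 and 3142 in kTreg cells, and the subsets overlapped. In old mice it stood at 2544, 2238, 1622 and 2251 in rTreg cells, at 1942, 717, 2034 and 2432 in aTreg cells, and at 2904, 3524, 3625 and 3883 in kTreg cells. The old kTreg libraries were all above the other old libraries, and the old rTreg libraries were all below the young rTreg libraries. kTreg cells exceeded aTreg cells in 8 of 8 mice. The log2 fold change was 1.10 ± 0.24 in old mice (adjusted p = 0.019, limma) and 0.15 ± 0.24 in young mice (adjusted p = 0.75), and the difference of the ages, 0.94 ± 0.34, did not pass (adjusted p = 0.39). Over both ages it was 0.63 ± 0.17 (adjusted p = 0.018), and this call held in 35 of 42 alternatives. It fell under the fold threshold with edgeR (0.57) and DESeq2 (0.56) and missed the p threshold when age was not a term (adjusted p = 0.058, limma). Leaving out the old aTreg library of replicate 2, the old value was 0.70 (adjusted p = 0.016) and the value over both ages was 0.43 (adjusted p = 0.0055), which is below the fold threshold of 1.5. The old call was lost without the kTreg library of replicate 2, 3 or 4 (adjusted p = 0.056, 0.069 and 0.054, limma). It was also lost without old mouse 2 (0.70, adjusted p = 0.069).

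*Lrrc32*, whose product presents latent TGF-beta, was lower in kTreg than in rTreg cells and lower in old than in young aTreg cells. In young mice it stood at 6129, 7118, 4234 and 6800 in rTreg cells, at 5308, 7542, 4399 and 6350 in aTreg cells, and at 2277, 2811, 2506 and 1086 in kTreg cells. In old mice it stood at 5924, 4140, 4393 and 5564 in rTreg cells, at 1493, 351, 1424 and 1428 in aTreg cells, and at 1858, 1325, 851 and 1125 in kTreg cells. In young mice the aTreg libraries lay with the rTreg libraries, and in old mice they lay with the kTreg libraries. Each old aTreg library was below each young aTreg library and each rTreg library of either age. The mean was 5.03-fold lower in old than in young aTreg cells, which the model put at -2.51 ± 0.37 on the log2 scale (adjusted p = 0.00040, limma), or -2.00 (adjusted p = 0.00049) without replicate 2, where the other 3 old libraries had a mean of 1448 ± 38.6 (SD, n = 3). In rTreg cells the same comparison gave -0.27 ± 0.37 (adjusted p = 0.74).

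Between aTreg and rTreg cells, *Lrrc32* gave -2.28 ± 0.37 in old mice (adjusted p = 0.00035, limma) and -0.04 ± 0.37 in young mice (adjusted p = 0.99). The difference of these values, -2.24 ± 0.52, passed its test (adjusted p = 0.035), also without the old aTreg library of replicate 2 (-1.73, adjusted p = 0.041). It missed the threshold in 7 of the 24 fits that left out 1 library, with a highest adjusted p of 0.097 without the young rTreg library of replicate 3, and with edgeR on recovered reads of 22 libraries (-1.97, adjusted p = 0.082). kTreg cells were below rTreg cells in 8 of 8 mice, with a value of -1.77 ± 0.26 over both ages (adjusted p = 3.0e-05). Against aTreg cells, kTreg cells were lower in young mice (-1.50 ± 0.37, adjusted p = 0.013). In old mice the value was 0.29 ± 0.37 (adjusted p = 0.82), or -0.22 without replicate 2, and the pooled value of -0.61 ± 0.26 (adjusted p = 0.15) became -0.86 (adjusted p = 0.0057) without that library. *Lrrc32* is also a platelet transcript, and the platelet gene *Pf4* stood between 0 and 34.2 in the 24 libraries, while 3 of the 7 platelet markers, *Gp9*, *Gp1bb* and *Gp6*, were not listed. The 4 listed ones summed to 23.4 to 87.1 in young and 61.2 to 143 in old aTreg libraries, and none was called between them. In rTreg libraries they summed to 44.2 to 73.8 in young and 451 to 981 in old mice, and *Itga2b*, 1 of the 4, was lower in old aTreg than in old rTreg cells (-4.30, adjusted p = 0.0048), as *Lrrc32* was. Its part in the *Lrrc32* values was not tested.

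*Nrp1*, the semaphorin and VEGF co-receptor, had the narrowest range of group means, 1.92-fold from lowest to highest. In young mice it stood at 4592, 5510, 3689 and 4917 in rTreg cells, at 6852, 8108, 6096 and 5939 in aTreg cells, and at 6515, 6109, 7685 and 7273 in kTreg cells. In old mice it stood at 7471, 7709, 6683 and 8461 in rTreg cells, at 5927, 3271, 8009 and 7193 in aTreg cells, and at 7687, 9603, 9776 and 8922 in kTreg cells. The young rTreg libraries were below all other libraries of young mice and below the old rTreg libraries. Old against young rTreg cells gave 0.71 ± 0.19 (adjusted p = 0.029, limma), a mean 1.62-fold higher. This call was lost in 5 of the 24 fits that left out 1 library, with a lowest value of 0.60 (adjusted p = 0.13) without the young rTreg library of replicate 3, and with edgeR (0.69, adjusted p = 0.083). Between kTreg and rTreg cells *Nrp1* was higher in 8 of 8 mice but its 0.41 ± 0.14 (adjusted p = 0.034) was under the fold threshold. In young mice that comparison also had 1 of 10 macrophage and monocyte markers higher. *Nrp1* is also made by macrophages and dendritic cells. Summed macrophage and monocyte markers lay between 11555 and 29066 in old and between 1107 and 9718 in young rTreg libraries, summed dendritic cell markers lay between 386 and 844 in old and between 422 and 781 in young rTreg libraries, and 1 of 10 and 0 of 7 of these markers were called higher. In the same libraries 5 of 6 basophil and mast cell markers were higher. Such sums can rest on 1 marker, as in old aTreg libraries those of macrophages and monocytes did mostly on *Ccr2*, and those of dendritic cells on *Ccr9*. The part of other cells in the difference was not tested.

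*Izumo1r*, the folate receptor family member, was lowest in young kTreg cells. In young mice it stood at 20746, 17387, 21125 and 17451 in rTreg cells, at 24973, 19415, 24309 and 20939 in aTreg cells, and at 10925, 13584, 11333 and 10536 in kTreg cells. In old mice it stood at 14323, 13490, 23360 and 15821 in rTreg cells, at 13716, 8480, 16508 and 19827 in aTreg cells, and at 14051, 11066, 15644 and 14619 in kTreg cells. The young kTreg libraries were below all other young libraries, and the 3 old subsets overlapped. In young mice kTreg cells were lower than aTreg cells (-0.95 ± 0.20, adjusted p = 0.0036, limma) and than rTreg cells (-0.73 ± 0.20, adjusted p = 0.012), with means 1.93-fold and 1.65-fold lower. In old mice these values were -0.02 ± 0.20 (adjusted p = 0.99) and -0.25 ± 0.20 (adjusted p = 0.47). The differences of the ages, 0.93 ± 0.28 (adjusted p = 0.29) and 0.48 ± 0.28 (adjusted p = 0.39), did not pass, so the subsets were not shown to differ less in old mice. Over both ages the value against aTreg cells was -0.49 ± 0.14 (adjusted p = 0.024), under the fold threshold, and -0.61 (adjusted p = 0.0015) and past it without the old aTreg library of replicate 2.

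*Gpr83*, the G protein-coupled receptor, had the widest range of the 7 genes, with its highest group mean 18.7-fold above its lowest. In young mice it stood at 7668, 7044, 7947 and 8340 in rTreg cells, at 4466, 4855, 4178 and 5241 in aTreg cells, and at 433, 534, 739 and 305 in kTreg cells. In old mice it stood at 4455, 2149, 2483 and 5464 in rTreg cells, at 1474, 481, 1406 and 1516 in aTreg cells, and at 782, 158, 190 and 526 in kTreg cells. In young mice the 3 subsets did not overlap. In old mice the rTreg libraries were above the aTreg libraries, and aTreg and kTreg libraries overlapped through the aTreg library of replicate 2. The order was rTreg, aTreg, kTreg from highest to lowest in each of 8 mice. kTreg means were 15.4-fold lower than rTreg means in young mice (log2 fold change -4.01 ± 0.43, adjusted p = 7.1e-07, limma) and 8.79-fold lower in old mice (-3.34 ± 0.43, adjusted p = 3.4e-05). Against aTreg cells the values were -3.29 ± 0.43 in young mice (adjusted p = 4.9e-05) and -1.73 ± 0.43 in old mice (adjusted p = 0.034), the latter -2.13 (adjusted p = 0.014) without replicate 2 of the aTreg cells and not called by edgeR (-1.57, adjusted p = 0.069). This old call held in 32 of 41 alternatives. It was lost without the aTreg library of replicate 1, 3 or 4 or the kTreg library of replicate 2 or 3 (adjusted p = 0.071 to 0.154), without old mouse 2 (adjusted p = 0.052), without young mouse 2 (adjusted p = 0.053) and when only the groups compared were fitted (adjusted p = 0.052). The difference of the ages, 1.56 ± 0.61, did not pass (adjusted p = 0.42).

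**Figure D2:**
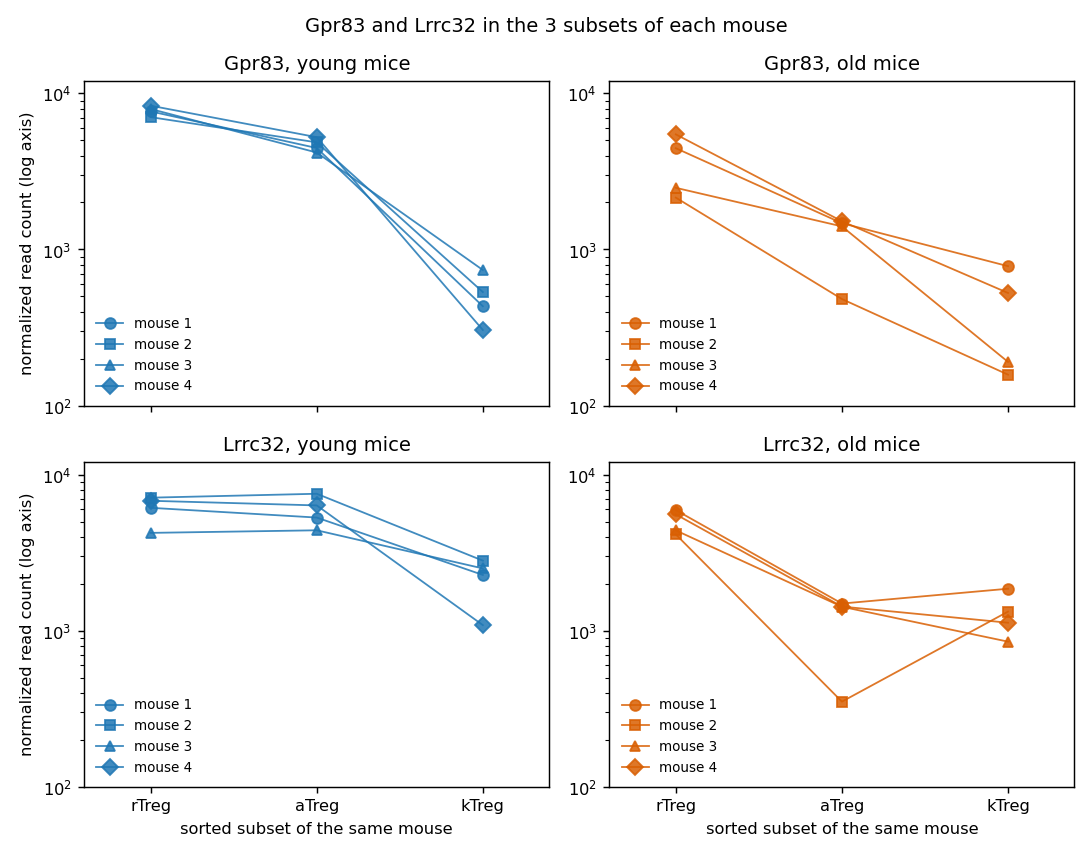
Normalized read count on a log axis of *Gpr83* and *Lrrc32* in rTreg, aTreg and kTreg cells, with 1 line for each mouse. *Gpr83* descends along each line, from 7044 to 8340 in young rTreg cells to 305 to 739 in young kTreg cells, and *Lrrc32* of aTreg cells lies at 4399 to 7542 in young and at 351 to 1493 in old mice.

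*Gpr83* was lower in old than in young aTreg cells, where the mean was 3.84-fold lower (-2.07 ± 0.43, adjusted p = 0.0075, limma), or -1.67 (adjusted p = 0.045) without replicate 2. When that library, the young kTreg library of replicate 4 and the 3 libraries of young mouse 2 were all left out, the value was -1.65 and no longer passed (adjusted p = 0.063). The old rTreg libraries were also all below the young rTreg libraries, but the value of -1.20 ± 0.43 did not pass (adjusted p = 0.098). In kTreg cells it was -0.52 ± 0.43 (adjusted p = 0.55). Between aTreg and rTreg cells *Gpr83* gave -1.61 ± 0.43 in old mice (adjusted p = 0.020), -1.20 (adjusted p = 0.091) without replicate 2 of the aTreg cells, -1.37 (adjusted p = 0.073) without replicate 4 of the rTreg cells, and -0.73 ± 0.43 in young mice (adjusted p = 0.52). The young value of -0.73 passed when only the groups compared were fitted (adjusted p = 0.0019, limma). In the order of group means, young rTreg, young aTreg, old rTreg, old aTreg, young kTreg and old kTreg, the neighbours old rTreg and old aTreg differed past the threshold.

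Counted over the 7 genes, kTreg against aTreg cells gave 3 higher (*Foxp3*, *Ikzf2*, *Ikzf4*) and 1 lower (*Gpr83*). A call needed an adjusted p under 0.05 with more than a 1.5-fold change, which 7.39% of the 16630 genes tested met, 4.13% higher and 3.26% lower. Leaving out the old aTreg library of replicate 2, the pooled comparison had 2 higher (*Foxp3*, *Ikzf2*) and 3 lower (*Gpr83*, *Lrrc32*, *Izumo1r*). In young mice 3 were lower (*Lrrc32*, *Gpr83*, *Izumo1r*) and none higher, with 6.95% of all genes called and 3.49% lower, and at an unadjusted p 4 passed with the fold threshold. In old mice the 4 genes of the pooled comparison were called, with 2.20% of all genes, 1.33% higher and 0.866% lower. Without the old aTreg library of replicate 2 the old comparison had *Foxp3* and *Ikzf4* higher and *Gpr83* lower. The old count also fell to 0 without the old kTreg library of replicate 3, where *Foxp3* gave 1.39 (adjusted p = 0.051), to 1 without the kTreg library of replicate 2, and to 2 without the kTreg library of replicate 4 or the aTreg library of replicate 1. The shares given are those of the fit on all libraries. No share is given for fits that leave out a library or for an unadjusted p, so those counts are not read as a pattern of the 7. None of the 7 passed the test of the difference between the ages, where 0.156% of all genes did. At an unadjusted p below 0.05 with the same fold, 6 of the 7 passed that test in limma, and edgeR and DESeq2 called 0. All 6 use the old aTreg group, whose replicate 2 was the lowest for each of the 7 genes. No share of all genes is given at that cut, so the count is not read as a pattern of the 7. The pooled, young and old comparisons share their libraries.

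Against rTreg cells, kTreg cells had 1 gene higher (*Ikzf2*) and 2 lower (*Lrrc32*, *Gpr83*), with 15.5% of all genes called, 9.37% higher and 6.09% lower. In young mice *Izumo1r* was also lower (4 of 7, with 15.8% of all genes, 8.24% higher and 7.56% lower). In old mice the same 3 were called as in the pooled comparison, with 8.86% of all genes, 5.77% higher and 3.09% lower. Once the old aTreg library of replicate 2 was left out, *Foxp3* (0.74, adjusted p = 0.0074) and *Ikzf4* (0.70, adjusted p = 0.0014) were called in old mice as well, against 0.74 (adjusted p = 0.12) and 0.70 (adjusted p = 0.071) with it. That library is in neither group of this comparison, so the fold changes did not move. What moved was the spread, which the fit shares over all 6 groups, and with it the adjusted p. The old call of *Ikzf2* was lost without the rTreg library of replicate 4 (0.84, adjusted p = 0.085) and without the kTreg library of replicate 2, 3 or 4 (0.95 to 0.97). Between aTreg and rTreg cells the only calls were lower *Lrrc32* and *Gpr83*, in the pooled (8.01% of all genes, 2.78% lower) and in the old comparison (8.60%, 3.78% lower). There was no call in young mice (3.35%), where 0 passed in edgeR or DESeq2 and an unadjusted p below 0.05 with the fold threshold gave 0. When only the groups compared were fitted, *Gpr83* was called lower in young mice (-0.73, adjusted p = 0.0019, limma). The age difference of aTreg against rTreg cells passed for *Lrrc32* alone (1.56% of all genes, 1.05% lower), and that of kTreg against rTreg cells for none (3.02%), with 0 at an unadjusted p and 0 in edgeR and DESeq2.

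**Figure D3:**
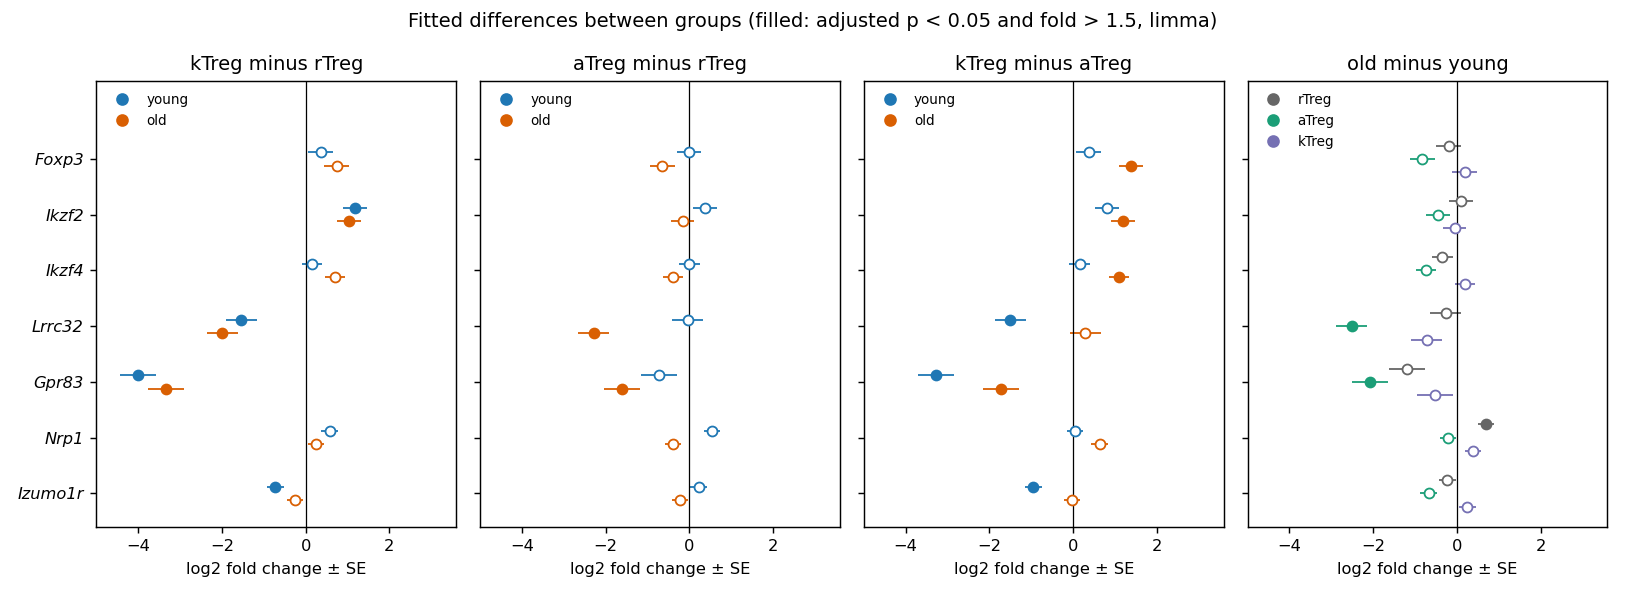
Log2 fold change with its standard error (limma, 4 libraries a group) of the 7 genes between subsets in young and in old mice and between ages in each subset. Filled points passed an adjusted p of 0.05 and a fold change of 1.5. *Gpr83* lies lowest against rTreg cells (-4.01 in young and -3.34 in old kTreg cells), and *Lrrc32* of aTreg cells is near 0 in young mice (-0.04) and at -2.28 in old mice.

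Old against young mice gave *Nrp1* higher in rTreg cells (1 of 7, with 5.83% of all genes called and 4.12% higher), *Lrrc32* and *Gpr83* lower in aTreg cells (2 of 7, with 2.71% and 0.860% lower) and no call in kTreg cells (1.26%), where an unadjusted p below 0.05 with the fold threshold gave 0, as did edgeR and DESeq2. Without the old aTreg library of replicate 4, *Ikzf4* and *Izumo1r* were also called lower in aTreg cells (4 of 7). That fit keeps replicate 2, the lowest of its group for both genes at 717 and 8480, and no share of all genes is given for it. *Lrrc32* and *Gpr83* fell in aTreg cells beside other Treg genes: of 22 further genes of a Treg signature, 4 were lower in old aTreg cells and 0 higher. They were *Il2ra*, the receptor chain CD25 (-1.18, adjusted p = 0.00085), *Dusp4*, a MAP kinase phosphatase (-1.75, adjusted p = 0.0012), *Ctla4*, the inhibitory receptor (-0.93, adjusted p = 0.011), and the activation marker *Cd83* (-0.76, adjusted p = 0.039). Without the old aTreg library of replicate 2, 3 were lower and 0 higher. Transcripts of conventional CD4 T cells moved with this group. The sum of 12 such markers lay between 24050 and 38938 in old and between 12322 and 14225 in young aTreg libraries, with *Il7r* (1.85, adjusted p = 0.00077), *Cd40lg* (1.29, adjusted p = 0.012) and *Pde3b* (1.58, adjusted p = 0.0033) higher and *Igfbp4* (-2.63, adjusted p = 0.00035) lower. In old aTreg libraries *Il7r* alone made up most of the sum, at 28423 of 38938 in replicate 2 and at 12889 to 20332 in the others. The part of these markers in the lower *Lrrc32* and *Gpr83* was not tested. Between subsets, 7 of the 12 were lower in kTreg than in aTreg cells and 0 higher, where 3.26% of all genes were lower. In aTreg against rTreg cells 7 were higher and 2 lower, where 8.01% of all genes were called and 2.78% were lower. Both counts use all libraries, the old aTreg library of replicate 2 among them.

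The old aTreg library of replicate 2 was the lowest of its group for each of the 7 genes, whereas 39.4% of all genes tested were lowest there and 33.8% were highest there. *Foxp3* was 3.61-fold below the mean of the other 3 old aTreg libraries. The ratio to that mean was 0.243 for *Lrrc32*, 0.329 for *Gpr83*, 0.336 for *Ikzf4*, 0.464 for *Nrp1*, 0.476 for *Ikzf2* and 0.508 for *Izumo1r*. For 6 of the 7 genes it was the lowest of all 24 libraries. Of the 22 other Treg signature genes, 20 were lowest of the 4 there. The library also had the highest *Cd40lg* (6568 against 3325 to 4208), *Il2* (332 against 59 to 99) and *Il7r* (28423 against 12889 to 20332) of its group, 3 of the 12 conventional CD4 T cell markers, of which 5 were lowest there. Neither *Foxp3* nor any other of the 7 genes was absent from it, and whether the sort or the cells differed was not tested.

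**Figure D4:**
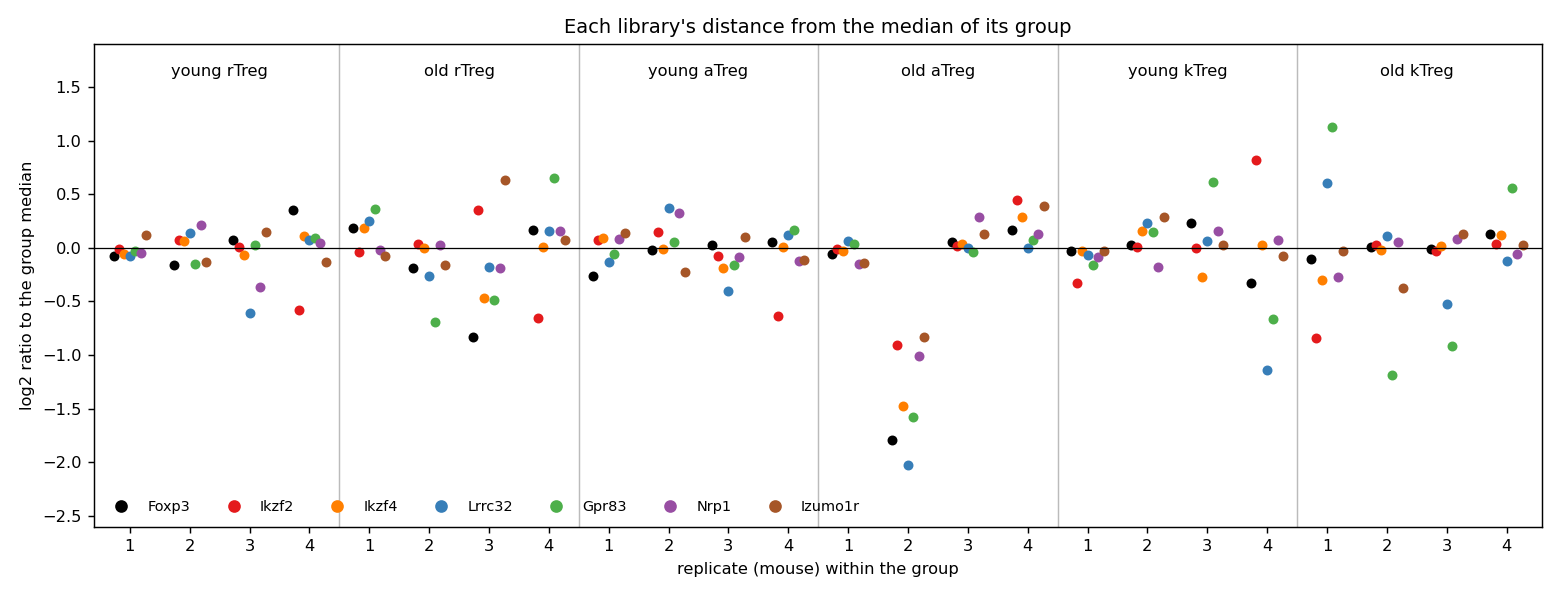
Log2 ratio of each library to the median of its group for the 7 genes, by group and replicate, with 1 point for each gene. In the old aTreg library of replicate 2 all 7 points lie below 0, with *Lrrc32* (351 normalized read counts) and *Foxp3* (5079) lowest. In the young kTreg library of replicate 1 all 7 also lie below 0, but closer to it.

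Compared per kilobase of exon, *Izumo1r* and *Foxp3* were the most abundant of the 7 transcripts, with group means of 4172 to 8064 and 3286 to 7598 normalized read counts per kilobase. *Gpr83* followed at 75.3 to 1409, *Lrrc32* at 248 to 1280, *Ikzf2* at 311 to 733, *Nrp1* at 307 to 590 and *Ikzf4* at 254 to 496. The order of the lower 5 depends on the length used. Per kilobase of the longest transcript, *Nrp1* stood at 901 to 1733, *Ikzf2* at 425 to 1001, *Gpr83* at 97.2 to 1820, *Lrrc32* at 254 to 1311 and *Ikzf4* at 339 to 664, below *Izumo1r* at 7704 to 14890 and *Foxp3* at 3916 to 9054.

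Across the 24 libraries, which share mice and groups, the genes whose levels followed *Foxp3* most closely were *Ikzf4* (Pearson r of log2 values 0.929), *Coro2a* (0.881), *Slc2a3* (0.879), *Gpr174* (0.864) and *Cd6* (0.860). Without the old aTreg library of replicate 2 these were 0.813, 0.832, 0.783, 0.636 and 0.588. *Gpr83* was followed by *Gpr18* (0.966), *Id3* (0.946) and *Capn3* (0.944), and *Lrrc32* by *Itga6* (0.942), *Ift80* (0.939) and *Actn1* (0.916). For *Ikzf2* they were *Tnfrsf4* (0.893), *F730043M19Rik* (0.893) and *B3gntl1* (0.886), for *Ikzf4* *Foxp3*, *Gpr174* (0.865, or 0.625 without that library) and *Tnfrsf13b* (0.852, or 0.708), for *Nrp1* *Arhgef5* (0.876), *Jak3* (0.873) and *Nlrc5* (0.871), and for *Izumo1r* *Gm30214* (0.878), *Trbv19* (0.860) and *Pacsin1* (0.840, or 0.793). The other values of these genes differed by less than 0.05 without that library. *Lrrc32* and *Gpr83* themselves correlated with 0.835, or 0.874 without that library. After the group means were removed, 20 of the 21 pairs among the 7 genes correlated above 0 over 24 libraries (median 0.471), and 12 of 21 did so over 23 (median 0.0788).

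Beyond the 7 genes, most other genes of the Treg signature were higher in kTreg than in rTreg cells. Of 22, 12 were higher and 1 was lower in kTreg than in aTreg cells, with a median log2 fold change of 0.81 against -0.08 over all genes, and 11 and 1 without the old aTreg library of replicate 2. Over all genes 4.13% were higher and 3.26% lower. Against rTreg cells 17 were higher and 0 lower, with 9.37% and 6.09% of all genes. Among them were *Penk*, the enkephalin precursor (3.43, adjusted p = 3.5e-10), *Ebi3*, a subunit of IL-35 (2.44, adjusted p = 2.0e-09), the costimulatory receptor *Icos* (1.69, adjusted p = 8.1e-09) and *Cd83* (1.71, adjusted p = 1.3e-08). Between aTreg and rTreg cells 11 were higher and 1 was lower, where 8.01% of all genes were called. In old against young rTreg cells 6 were higher and 2 lower, where 5.83% of all genes were called, among them *Itgae*, the integrin CD103 (2.32, adjusted p = 0.00014), and *Il2ra* (-0.93, adjusted p = 0.00375). In old against young kTreg cells 0 were higher and *Icos* was lower (-0.77, adjusted p = 0.0497), where 1.26% of all genes were called.

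Of 30 genes that act with FOXP3 or on its locus, 4 were higher and 3 lower in kTreg than in aTreg cells, where 4.13% of all genes were higher and 3.26% lower. Against rTreg cells 4 were higher and 5 lower, where 9.37% of all genes were higher and 6.09% lower, so the share that was higher was near that of all genes. *Gata3*, a transcription factor that Treg cells also use, was higher in kTreg than in rTreg cells (1.44, adjusted p = 2.0e-09) and than in aTreg cells (1.16, adjusted p = 2.1e-07). *Bach2* and *Satb1*, factors of resting T cells, were lower in kTreg than in rTreg cells, at -2.76 (adjusted p = 1.68e-08) and -1.96 (adjusted p = 1.55e-08). *Bach2* was also among 5 of the 30 that were lower in old than in young aTreg cells (-1.81, adjusted p = 0.0026), with 0 higher, or 3 and 0 without the old aTreg library of replicate 2. With all libraries, 0.860% of all genes were lower there. In old against young rTreg cells 2 were higher and 0 lower, where 4.12% of all genes were higher, so the count is not read as a pattern of the list. In kTreg cells 0 were called, where 1.26% of all genes were, at the same thresholds.

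Of the 3 other Ikaros genes, *Ikzf3* (Aiolos) was higher in kTreg than in aTreg cells (0.83, adjusted p = 0.0068) and lower in old than in young aTreg cells (-1.12, adjusted p = 0.025), *Ikzf1* (Ikaros) was lower in kTreg than in rTreg cells (-0.69, adjusted p = 5.6e-06), and *Ikzf5* had no call in these comparisons. In young mice *Ikzf3* was also higher in kTreg than in rTreg cells (1.40, adjusted p = 0.00095), and the difference between the ages passed its test (-1.48, adjusted p = 0.041). Of 8 other genes of latent TGF-beta activation, 2 were higher in kTreg than in aTreg cells (4.13% of all genes were), the integrin chain *Itgav* (0.74, adjusted p = 0.0073) and *Nrros*, a relative of *Lrrc32* (0.74, adjusted p = 0.00012), and none was called between old and young aTreg cells, where *Lrrc32* was lower. Of 9 NRP1 ligands and co-receptors tested, 1 was higher in kTreg than in aTreg cells (4.13% of all genes were, and a single gene cannot be read as a pattern of the list), the plexin *Plxnd1* (1.68, adjusted p = 0.012), which was also higher than in rTreg cells (2.30, adjusted p = 0.00038), where *Sema4a* (-0.82, adjusted p = 0.0036) and *Vegfa* (-1.85, adjusted p = 0.041) were lower. The folate receptor genes *Folr1* and *Folr2*, relatives of *Izumo1r*, were not listed.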

How the data were processed

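Bulk RNA-seq of 24 libraries was used: 3 Treg subsets from each of 4 young and 4 old mice. Per the labels and the methods of the study, the authors aligned 150 base paired reads to GRCm39 with HISAT2 2.2.1, used SAMtools 1.13, counted reads per gene with HTSeq 1.99.2 and normalized them with DESeq2 1.44.0 in R 4.4.1. The deposited values are a signal, read counts divided by a size factor for each library, and 100% of them came back as whole reads (within 0.001 reads) in the 22 libraries used for count tests. Differences were tested on log2(value + 1) with limma 3.58.1 (R 4.3.3) with a mean for each of the 6 groups, on 16630 genes that reached 10 in 4 or more libraries, so a fold change of a low gene is understated. A call needed a two-sided Benjamini-Hochberg adjusted p below 0.05 within a comparison and a fold change above 1.5. Alternatives included edgeR 4.0.16 and DESeq2 1.42.0 on recovered reads of 22 libraries, other scalings, filters and pseudocounts, and leaving out each library. The limma fit was tested on simulated data. Symbols came from GENCODE, where 17353 of 17464 identifiers matched.

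The 3 subsets were sorted from the same 4 young and 4 old mice per the labels, and libraries with 1 number within an age were taken as 1 mouse, which the labels do not state. Deviations from group means correlated with a median of 0.115 between aTreg and kTreg, 0.153 between rTreg and aTreg and 0.0911 between rTreg and kTreg cells of the same mouse, and -0.0507, -0.0331 and -0.0340 between mice. The 7 genes and the gene lists (a Treg signature, FOXP3 cofactors, Ikaros genes, TGF-beta activation, NRP1 partners, folate receptors and markers of other cell types) were chosen with earlier results of these data known. Genes named from a list were called and were among the 4 with the smallest p of that list in a comparison. A further marker of the sort of rTreg and aTreg cells is not reported here.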

Additional observations from a re-analysis of the deposited data

Results flagged for a closer look

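In 4 of 42 groups of 4 libraries, the lowest library lay farther from the others than Dixon's 95% critical value allows, and chance alone does this in about 1 in 20 groups. *Lrrc32* stood at 351 in the old aTreg library of replicate 2, against 1424 to 1493 in the other 3. *Gpr83* stood at 481 in the same library, against 1406 to 1516. *Ikzf2* stood at 2951 in the young rTreg library of replicate 4, against 4372 to 4613, and at 5675 in the old kTreg library of replicate 1, against 9958 to 10370. The difference between old and young mice in *Lrrc32* of aTreg against rTreg cells, -2.24 on the log2 scale, passed its own test (adjusted p = 0.035, limma), with -2.28 in old and -0.04 in young mice.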

How the results depend on the processing

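Of 105 values (7 genes in 15 comparisons), 29 were called, 17 of these in each alternative, and no called value changed sign. The replicate block fitted as a correlation (0.062) changed no call, and as a fixed term it changed that of *Ikzf2* in old kTreg against aTreg cells (1.19, adjusted p = 0.051, limma). The number of the 7 genes called moved as follows, and where no value shows it the cause was not tested. In old kTreg against aTreg cells it was 0 without old mouse 2, and 0 to 4 when 1 library was left out. Its age difference gave 6 at an unadjusted p. In kTreg against rTreg cells it was 5 with no fold threshold, and in old mice 5 at an unadjusted p, without old mouse 2 or without the 5 libraries that stand apart, and 2 to 5 with 1 library left out. In aTreg against rTreg cells it was 1 with limma on 22 libraries and 0 when age was not a term, in young mice 1 when only the groups compared were fitted, and in old mice 1 with edgeR, with limma on 22 libraries and without the 5 libraries, and 1 to 2 with 1 library left out. The age difference of aTreg against rTreg cells gave 0 with edgeR, with limma on 22 libraries and without old or young mouse 2, 2 at an unadjusted p, and 0 to 2 with 1 library left out. In old against young rTreg cells it was 0 with edgeR, limma on 22 libraries and quantile normalization, 2 when only those groups were fitted or at an unadjusted p, and 0 to 1 with 1 library left out. In aTreg cells it was 5 at an unadjusted p, 1 without the 5 libraries, and 2 to 4 with 1 library left out. Signs changed only in values that were not called. In young aTreg against rTreg cells *Foxp3* became 0.0690 (edgeR), 0.0961 (DESeq2), 0.0927 (limma, 22 libraries) and 0.155 (quantile), with -0.0787 to 0.0927 over single libraries. There *Ikzf4* became 0.0102, 0.0372, 0.0339 and 0.0234 in the same order and 0.0115 without young mouse 2 or the 5 libraries (-0.0393 to 0.0540), and *Lrrc32* 0.0188 (DESeq2), 0.0219 (limma) and 0.0385 (quantile; -0.206 to 0.0895). *Ikzf2* became 0.00861 (limma, 22 libraries) and 0.0681 (5 libraries) in the age difference of kTreg against rTreg cells (-0.347 to 0.0764), 0.14 (old mouse 2) and 0.10 (5 libraries) in old aTreg against rTreg cells (-0.36 to 0.10), 0.23 (5 libraries) in old against young kTreg cells (-0.20 to 0.18), and -0.0440, -0.00371 and -0.0623 (edgeR, DESeq2, limma) in old against young rTreg cells (-0.0491 to 0.293), where *Foxp3* ran from -0.308 to 0.0293. Without old mouse 2, *Ikzf4* of aTreg against rTreg cells became 0.00789 (0.00263 without the 5 libraries), in old mice 0.0164 and in its age difference 0.0170. *Lrrc32* of old kTreg against aTreg cells became -0.26 (old mouse 2) and -0.22 (5 libraries; -0.22 to 0.47). *Nrp1* became -0.0694 (quantile; -0.0214 to 0.128) in young kTreg against aTreg cells and 0.06 (old mouse 2) and 0.15 (5 libraries; -0.37 to 0.06) in old against young aTreg cells, and ran from -0.00496 to 0.21 in aTreg against rTreg cells. *Izumo1r* became 0.0140 (quantile; -0.265 to 0.144) in old kTreg against aTreg cells, 0.0132 (5 libraries; -0.395 to 0.0132) in old aTreg against rTreg cells, and 0.00577 (TMM), 0.0662 (quantile), 0.0719 (old mouse 2), 0.00875 (young mouse 2) and 0.129 (5 libraries; -0.0861 to 0.118) over both ages. With 4 mice a group and 1 library each, the p-values of the main fit rest on the spread between mice, shared over all 6 groups. A library outside a comparison can therefore change its adjusted p. The fits without the 5 libraries or young mouse 2, and limma on 22 libraries, were chosen after seeing the data.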
